A study of Mus musculus with 4 samples.

Results

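The transcripts described here are 8 long non-coding host genes of small nucleolar RNAs (Gas5, Snhg1, Snhg3, Snhg4, Snhg5, Snhg6, Snhg8 and Snhg12) and 2 nuclear long non-coding RNAs (Malat1 and Neat1). They were chosen by gene symbol from 17478 genes listed in at least 1 of the 4 expression tables. All 10 were found in every table, and all 10 passed the filter on low counts. RNA sequencing was done on mouse CD4+ T cells (C57BL/6, age 6 to 8 weeks). Naive CD44lo CD62Lhi cells of spleen and lymph nodes had been stimulated with antibodies to CD3 and CD28 for 3 days in conditions that give Th9 cells, the helper T cells that secrete interleukin 9. Wild type and a knockout labelled BFAR-/- had 2 libraries each. The labels' protocols call the Bfar deficiency conditional in T cells. They do not name the Cre driver, and they do not say that replicates are separate mice. The p-values then describe the spread of these libraries alone, which may be technical.

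Host genes of this kind carry small nucleolar RNAs (snoRNAs) in their introns. These short RNAs guide methylation or pseudouridylation of ribosomal RNA, or take part in its cleavage. The spliced exons have little coding capacity, many of the spliced RNAs are degraded by nonsense-mediated decay, and many start with a terminal oligopyrimidine (TOP) tract, a run of C and T letters that ties translation to growth signals through mTORC1. Gas5 was named for its build-up in growth-arrested cells. Malat1 RNA concentrates in nuclear speckles, which store splicing factors. Neat1 has a short polyadenylated form and a long form, and the long form is the scaffold of paraspeckles.

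The start sites are shown because a TOP tract is the sequence feature best known for this class of host gene. Starts from RefSeq (GRCm38.p6) were used for 7 of the 10 genes, with 2 starts for Gas5. A tract was counted where a C followed by at least 4 letters that are C or T began within 5 bases of the annotated start, on the sense strand. Each line below runs from 30 bases before the start to 30 bases from it, 5′ to 3′, and capitals mark the tract.
Gas5, upstream start, chr1:161034571-161034630, plus strand: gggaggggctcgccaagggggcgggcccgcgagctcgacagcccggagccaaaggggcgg
Gas5, downstream start, chr1:161035136-161035195, plus strand: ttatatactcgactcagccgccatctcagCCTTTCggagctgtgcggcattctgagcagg
Snhg12, chr4:132308648-132308707, plus strand: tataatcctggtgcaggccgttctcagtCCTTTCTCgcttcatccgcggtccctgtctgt
Snhg8, chr3:123508307-123508366, minus strand: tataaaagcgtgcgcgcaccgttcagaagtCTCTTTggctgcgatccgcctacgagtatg
Snhg3, chr4:132353657-132353716, minus strand: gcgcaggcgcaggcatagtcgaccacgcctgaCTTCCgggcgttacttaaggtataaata
Snhg5, chr9:88522868-88522927, minus strand: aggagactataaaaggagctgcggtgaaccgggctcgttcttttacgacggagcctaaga
Snhg1, chr19:8723457-8723516, plus strand: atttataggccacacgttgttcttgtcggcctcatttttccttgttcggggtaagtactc
Malat1, chr19:5802643-5802702, minus strand: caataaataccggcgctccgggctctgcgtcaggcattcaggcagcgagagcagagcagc

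Gas5, Snhg12, Snhg8 and Snhg3 had such a tract, which makes 4 of 7 genes, and in Gas5 it lay at the downstream start. Of all 32851 promoters of the same length, each counted singly, 18.3% had such a tract. Gas5 was counted if either of its starts had a tract, so the share of genes and that of promoters differ in unit. With a distance of 10 bases, Snhg5 was added (5 of 7, against 30.7% of all promoters), while Snhg1 and Malat1 still had none. The letters CACGTG, a binding motif of Myc, were in none of the 7 genes' windows of 300 bases on either strand, and in 7.2% of all windows. A match describes these letters only.

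The depth was even, with 19058009 to 19782923 summed expected counts per library. In CPM (counts scaled to library size), Bfar was at 36.4 and 32.9 in wild type against 8.45 and 7.79 in the knockout (log2 -2.09 ± 0.09, SE). The summed level of 8 Th9 and T cell genes lay between 2680 and 2790 CPM in all libraries. Within that sum Il9 fell, from 537 and 505 to 238 and 270 CPM, while 4 T cell genes rose: Cd4 by 0.23, Cd3e by 0.20, Cd3g by 0.21 and Cd247 by 0.29 on the log2 scale. The part of these changes in the results below was not tested. That of 21 markers of CD8 T, B, myeloid, dendritic, NK, mast and erythroid cells lay between 26.5 and 28 CPM. Of the 21, 17 were listed and 8 had enough counts to be tested, and of those 8 only Kit, a mast cell marker, was called (1.51 and 1.32 against 3.58 and 3.32 CPM). Across all 12677 tested genes, edgeR's quasi-likelihood test called 3398, or 26.8%, at a Benjamini-Hochberg adjusted p of 0.05, with 1728 higher in the knockout and 1670 lower. After removal of a trend with gene length the split was 1402 higher and 2142 lower.

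Among the 10 transcripts, Neat1 rose and Malat1 fell in the knockout, and none of the 8 host genes was called. That is 2 of 10, beside 26.8% of all tested genes. The groups did not overlap for 7 of the 10, where 63.5% of all tested genes showed the same, which is close to the background. The changes of Malat1 and Neat1 were larger in size than those of 93.5% and 94.5% of tested genes. The Malat1 rank rests on a log2 fold change of -0.63, which was -0.24 without wild-type replicate 1. Malat1 was also not called in DESeq2 (adjusted p = 0.253). The 10 transcripts had a median log2 fold change (knockout over wild type) of -0.04, against 0 for all genes. In such bulk samples, fewer cells of a type and less RNA per cell cannot be told apart.

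**Figure D1:**
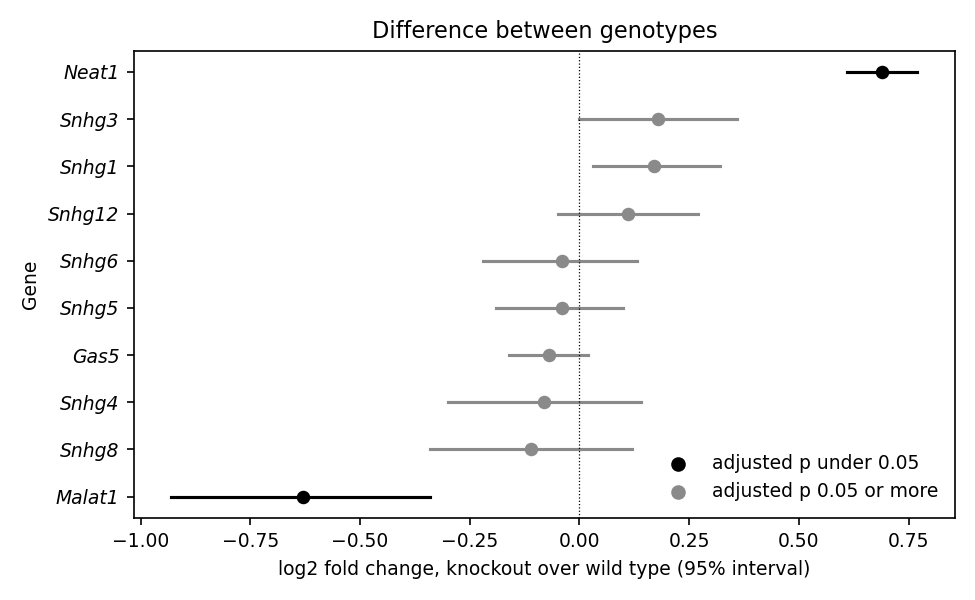
Log2 fold change, knockout over wild type, of each transcript (x axis), with points for the edgeR estimate and bars for its 95% interval; black marks an adjusted p under 0.05. Neat1 (0.69) and Malat1 (-0.63) lie at opposite ends, and the 8 host genes lie between -0.11 and 0.18.

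Neat1 lies on chromosome 19 (5824708 to 5845480, minus strand, GRCm38.p6). Wild-type replicates 1 and 2 had 164 and 162 CPM, and knockout replicates 1 and 2 had 262 and 264 CPM. Both knockout libraries were thus above both wild-type libraries, and the replicates of each genotype nearly coincided. Per length, its level went from 50.4 ± 0.403 to 81.3 ± 0.403 FPKM (SD, n = 2), a ratio of 1.61. The log2 fold change was 0.69 ± 0.04 (SE; edgeR adjusted p = 6.49e-09). It ranged from 0.67 to 0.70 over 15 other processing choices, and all of them kept the call.

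The tables list Neat1 with both RefSeq forms, and its listed length is the mean of their lengths weighted by the share RSEM gave to each. This length was 3219.88 and 3220.4 bases in wild type, against 3204.21 and 3208.19 bases in the knockout. GENCODE M21 gives 20771 bases for the long form and 3004 for the short. With these lengths, the listed length puts the long form at 1.22% of Neat1 molecules in each wild-type library. In the knockout libraries it gives 1.13% and 1.15%. These are estimates and not limits, because the short model the authors used may differ from 3004 bases. The error of RSEM's division between the forms is not given either. The mean length was 13.9 bases lower in the knockout, which amounts to a share lower by less than 0.1 percentage points (-0.078). By this estimate nearly all Neat1 molecules were of the short form in both genotypes. The forms share their first part, so reads there cannot be told apart. Whether the libraries selected polyadenylated RNA is not given in the sources used here.

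Malat1 (chromosome 19, 5795690 to 5802672, minus strand) lies 22036 bases from Neat1 and is transcribed in the same direction. Its wild-type libraries had 268 and 165 CPM, while its knockout libraries had 146 and 133 CPM. Wild-type replicate 1 stood far above the other 3 libraries, while wild-type replicate 2 was only a little above the knockout libraries. The means were 30.7 ± 10.3 and 19.7 ± 1.36 FPKM (SD, n = 2), a ratio of 0.642. The log2 fold change was -0.63 ± 0.14 (SE; edgeR adjusted p = 0.00356). Without wild-type replicate 1 it was -0.24 (edgeR adjusted p = 0.0126), and without wild-type replicate 2 it was -0.94 (adjusted p = 4.55e-08).

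The size of the Malat1 difference thus rests on 1 library. The wild-type libraries differed 1.62-fold in Malat1, against a median of 1.035-fold over 7260 genes that averaged 20 CPM or more. Of these, 3 differed at least as much, Malat1 included. Tmem254c, named after its values were seen, was among them (32.9 and 0.7 CPM). The knockout libraries differed 1.1-fold in Malat1. The call was lost in DESeq2 (adjusted p = 0.253), when low counts were kept (0.135), when limma was run on log2(FPKM + 0.1) (0.105) or log2(FPKM + 1) (0.102), without knockout replicate 1 (0.0644) and without knockout replicate 2 (0.127). Every one of the 15 alternatives gave a lower level in the knockout. They reuse the same libraries, in which the groups did not overlap, so this adds no support for the direction.

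**Figure D2:**
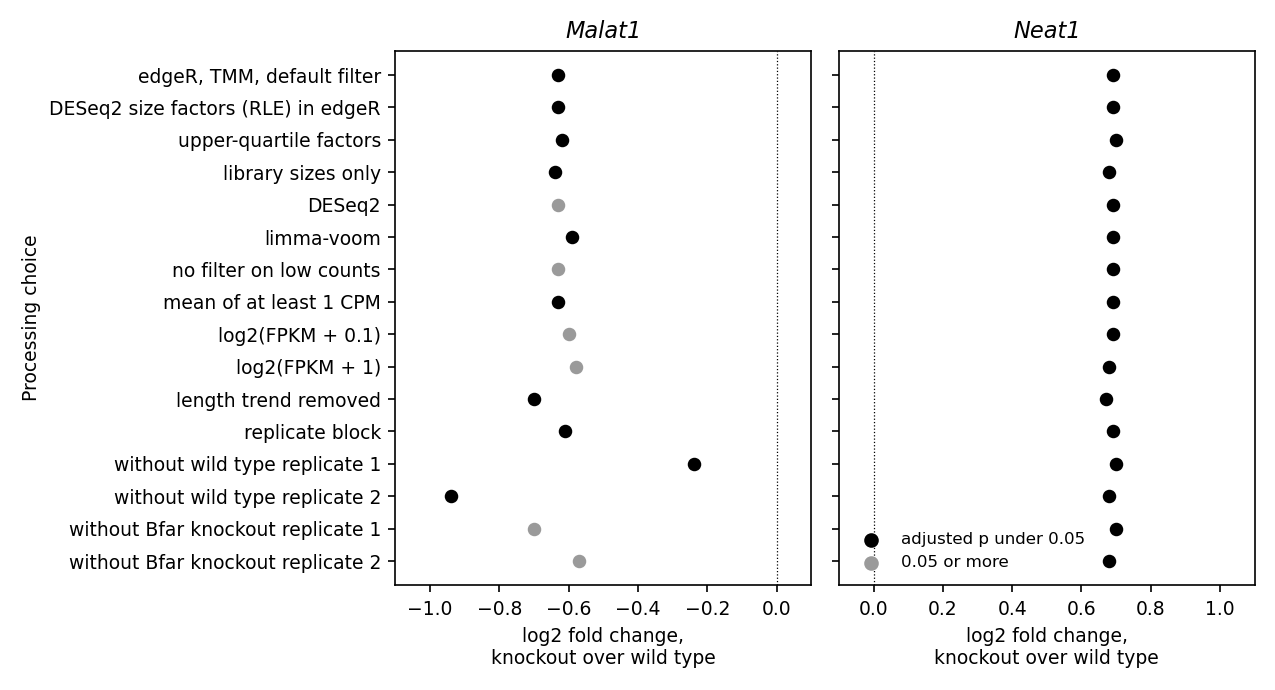
Log2 fold change, knockout over wild type (x axes), of Malat1 and Neat1 under each processing choice (y axis), with black for an adjusted p under 0.05. Malat1 spreads from -0.94 to -0.24 and loses its call under 6 choices, while Neat1 stays between 0.67 and 0.70.

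A neighbour of the pair was measured in the same fit. Frmd8, on the far side of Neat1 at a distance of 5494 bases and on the same strand, rose by 0.14 ± 0.04 (SE, log2; edgeR adjusted p = 0.0269), a much smaller change than that of Neat1. No listed gene overlapped either transcript. The expected counts of Malat1 were within 0.29 of a whole number in every library.

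By the distance between centred log2 CPM values over the 4 libraries, the 3 of 7252 candidate genes most like Malat1 were Ydjc (0.287), Slc6a9 (0.394), a glycine transporter gene, and Sox12 (0.396), a transcription factor gene. Their lower level in the knockout follows from this choice. Their wild-type libraries differed 1.28-fold, 1.11-fold and 1.14-fold in that order.

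The 8 snoRNA host genes were not called in either direction, where 26.8% of all tested genes were called in edgeR and 13.5% in DESeq2. None passed in edgeR, DESeq2 or limma-voom, and 2 of 8, Snhg1 and Snhg3, had an unadjusted p under 0.05 in edgeR, as in limma-voom (0 in DESeq2). Their edgeR adjusted p ran from 0.069 to 0.741, their median log2 fold change was -0.04, and 3 of the 8 lay above 0. The 95% intervals of the 8 genes reached from -0.34 to 0.36 on the log2 scale, a ratio of 0.79 to 1.28. Changes beyond these bounds lie outside all 8 intervals.

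Gas5 is on chromosome 1 (161034601 to 161038539, plus strand) and was the most heavily sequenced of the hosts. Its wild-type libraries had 202 and 197 CPM, and its knockout libraries 195 and 185 CPM. The knockout libraries were slightly lower without overlap, by about as much as they differed from each other. The log2 fold change was -0.07 ± 0.04 (SE; edgeR adjusted p = 0.223), with a 95% interval of -0.16 to 0.02. The genes nearest to it in pattern were Rap1a (distance 0.005), a small GTPase gene, Atp6v0a2 (0.009), a proton pump subunit gene, and the apoptosis gene Siva1 (0.011).

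The Gas5 level per length depends on the transcript model. The tables use 1 RefSeq transcript of 2554 bases, which GENCODE M21 pairs with a transcript of 2556 bases that keeps introns. Of the 25 Gas5 transcripts in GENCODE M21, 20 carry that label, and the other 5 have 346 to 665 bases. Divided by 2554 bases the wild-type level was 78.3 CPM per kilobase, and divided by 665 bases it would be 300.8. The same length was used in all libraries, so the choice of length does not change the ratio between genotypes. Whether the genotypes differ in Gas5 splicing, which could change the reads that match this model, was not tested.

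Gas5 overlaps the coding gene Zbtb37, which is on the other strand, and the strand setting of the counting is not given in the sources used here. Zbtb37, a zinc finger gene, had a log2 fold change of 0.08 ± 0.13 and was not called (adjusted p = 0.694 in edgeR). Summed with Zbtb37, Gas5 had a log2 fold change of -0.06.

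Snhg1 (chromosome 19, 8723487 to 8726326, plus strand) hosts Snord22 and other box C/D snoRNAs. Its level was 36.5 and 41.7 CPM in wild type, against 43.4 and 44.8 CPM in the knockout. Wild-type replicate 1 was the low library, and wild-type replicate 2 was close to the knockout libraries. The log2 fold change was 0.17 ± 0.07 (SE; edgeR adjusted p = 0.069), and it was 0.27 without wild-type replicate 2 (adjusted p = 0.0231) but 0.08 without wild-type replicate 1 (0.517). Its neighbour Slc3a2 starts 118 bases away on the other strand and encodes the heavy chain of amino acid transporters. Slc3a2 fell, from 431 and 426 to 369 and 352 CPM (log2 -0.25 ± 0.04, adjusted p = 0.000177). The neighbour on the other side, Wdr74, a ribosome assembly gene, fell by 0.34 on the log2 scale (adjusted p = 0.000438).

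Snhg3 (chromosome 4, 132351933 to 132353686, minus strand) hosts Snora73a and Snora73b, which act in the processing of ribosomal RNA. Wild type gave 24.2 and 23.1 CPM, and the knockout gave 28.9 and 24.7 CPM. Knockout replicate 1 was the high library, and the other 3 lay close together. The log2 fold change was 0.18 ± 0.08 (SE; edgeR adjusted p = 0.129), and it was 0.07 without knockout replicate 1. The next gene on the same strand, Rcc1, encodes the nucleotide exchange factor of Ran and lies 6183 bases away. Rcc1 fell from 115 and 117 to 95.4 and 91.2 CPM (log2 -0.31 ± 0.04, adjusted p = 9.94e-05). On the other side, Phactr4 had a log2 fold change of 0.10 ± 0.06 (adjusted p = 0.229).

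Snhg12 (chromosome 4, 132308678 to 132311024, plus strand) hosts 3 box H/ACA snoRNAs and Snord99. Its wild-type level was 22.6 and 21.8 CPM, and its knockout level 24 and 23.9 CPM. The knockout libraries were a little higher without overlap. The log2 fold change was 0.11 ± 0.08 (SE; edgeR adjusted p = 0.296). Trnau1ap, a selenocysteine tRNA-associated protein gene 739 bases away, had 0.09 ± 0.09.

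The other hosts had log2 fold changes just below 0. Snhg5 (chromosome 9, 88521052 to 88522897, minus strand) hosts Snord50 family RNAs. It had 33.5 and 36.3 against 33.1 and 34.6 CPM, with overlapping groups and a log2 fold change of -0.04 ± 0.07. Snhg6 (chromosome 1, 9942025 to 9944118, minus strand), the host of Snord87, had 20.3 and 22 against 20.6 and 20.4 CPM, also with overlap and -0.04 ± 0.08. Neither had an adjusted p under 0.6 in edgeR (0.674 and 0.741).

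Snhg8 (chromosome 3, 123507552 to 123508336, minus strand) had 12 and 12.1 against 10.4 and 12 CPM, with a log2 fold change of -0.11 ± 0.11 (adjusted p = 0.483 in edgeR). Its listed length of 785 bases equals the whole RefSeq span of the gene, so reads from an unspliced precursor are counted with the spliced RNA. Snhg4 (chromosome 18, 35553410 to 35558316), the host of Snora74a, had 13.8 and 13.8 against 12 and 14.1 CPM, with overlap and a log2 fold change of -0.08 ± 0.10 (adjusted p = 0.633). In both genes knockout replicate 1 was the low library, and without it Snhg4 was at 0.04. Matr3, the nuclear matrix protein gene 3842 bases from Snhg4, had 0.02 ± 0.04.

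Among the other neighbours of the hosts, Prss12, a neighbour of Snhg8, had expected counts of 11 and 9 in wild type against 22 and 21 in the knockout, and rose by 1.14 ± 0.38 (SE, log2; adjusted p = 0.035 in edgeR). Syncrip, an RNA-binding protein gene 38461 bases from Snhg5, fell by 0.12 (adjusted p = 0.0296 in edgeR). Serpinc1, the antithrombin gene, lies 32058 bases from Gas5 on the far side of Zbtb37 and fell by 0.68 (adjusted p = 0.000995 in edgeR). Mcmdc2, which overlaps Snhg6 on the other strand, had 0.20 ± 0.12 (adjusted p = 0.217), and the sum of both was at 0.03. The remaining tested neighbours had log2 fold changes of -0.38 to 0.11, and none of them was called (adjusted p = 0.157 to 0.879 in edgeR).

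Set side by side per length, the 10 transcripts covered a range from Snhg1, with 87.5 ± 8.22 FPKM in wild type (SD, n = 2), to Snhg4, with 12.2 ± 0.0141 FPKM. Gas5 came second (78.1 ± 1.46), followed by Snhg3 (58.2 ± 1.93) and Snhg6 (56.2 ± 3.03), whose wild-type libraries overlapped. Neat1 (50.4), Snhg12 (38.3 ± 0.99), Snhg5 (32.8 ± 1.9), Malat1 (30.7) and Snhg8 (15.8 ± 0.0707) came next. Snhg5 and Malat1 overlapped, and the other neighbours in this order did not. The order holds for the listed lengths only, and with 665 bases for Gas5 it would come first. In the knockout the order differed by 1 move, with Neat1 in place 2, between Snhg1 (98.3 ± 2.02) and Gas5 (74.1 ± 2.89). Snhg1 and Gas5 stood above 93.4% and 92.5% of tested genes in wild-type FPKM, and Snhg4 above 55%.

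**Figure D3:**
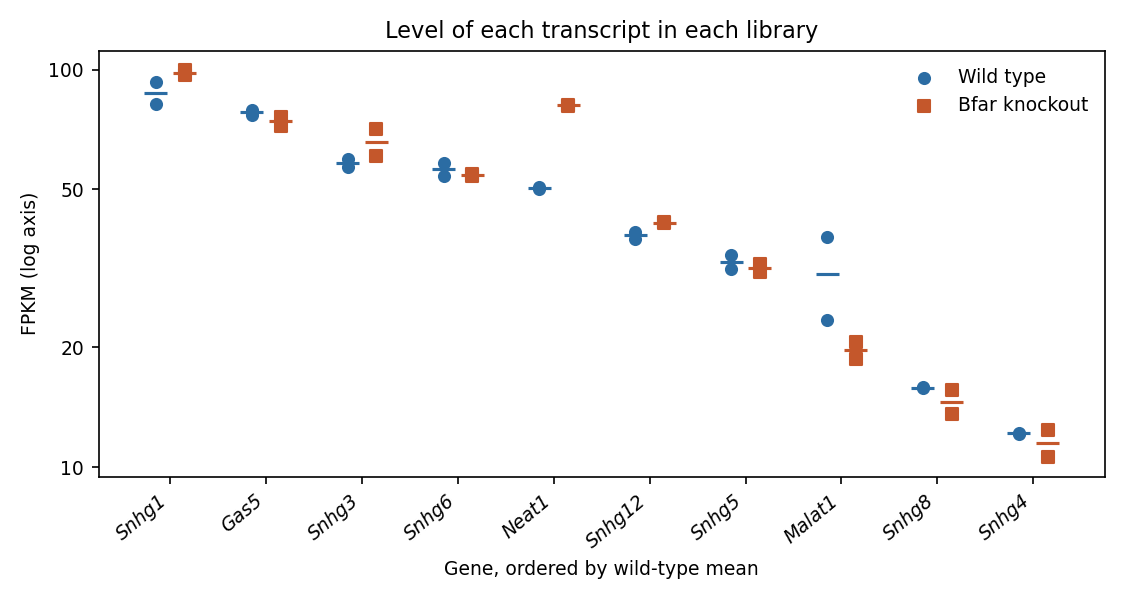
FPKM (y axis, log scale) of the 10 transcripts in each library, ordered by wild-type mean, with 1 point per library and a line at each group's mean. Neat1 is the only one whose groups lie far apart with tight replicates, and in Malat1 the wild-type points at 37.98 and 23.39 FPKM are far apart from each other.

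Few of the snoRNA genes themselves could be tested. Whether their reads come from the mature snoRNA or from unspliced host RNA was not tested. Of 10 listed snoRNA genes inside 6 of the hosts, 3 had enough counts to be tested. Snord22 in Snhg1 had expected counts of 52 and 54 in wild type, then 64 and 57 in the knockout (log2 0.24 ± 0.19, adjusted p = 0.402 in edgeR). In the same order Snora73b in Snhg3 had 68.39, 59.42, 53.05 and 73.5 (0.05 ± 0.21), and Snora73a had 32.61, 39.58, 25.95 and 32.5 (-0.28 ± 0.26). The counts of these 2 related RNAs are not whole, so RSEM may have divided reads between them and their values are uncertain. None of the 3 was called. The other 7 had at most 9 counts in any library. Of all 96 listed snoRNA and Cajal body RNA genes, 20 were tested and 1 was called in edgeR, beside 26.8% of all tested genes. The 3 described above had standard errors of 0.19 to 0.26, so low counts limit this comparison. None rose in edgeR, DESeq2 or limma-voom (1 at an unadjusted p under 0.05 in edgeR, as in limma-voom, and 0 in DESeq2). Snord96a was the 1 that fell, from 24 and 13 counts to 8 and 6 (adjusted p = 0.0465 in edgeR). Snord96a rests on few reads. No member of the list was called lower in DESeq2, with low counts kept or with the length trend removed. The mean level of Snord96a was 0.935 CPM in wild type and 0.365 CPM in the knockout. A filter on a mean of at least 1 CPM therefore leaves it out, and it was not tested there. With limma on log2(FPKM + 0.1) or log2(FPKM + 1), 2 of the list were higher and 3 lower.

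A list of other non-coding snoRNA hosts gave no calls, where 26.8% of all tested genes were called in edgeR and 13.5% in DESeq2. With only 7 tested genes, this says little beside those shares. Of its 16 symbols, 10 were listed and 7 tested, and none was called by edgeR, DESeq2 or limma-voom, nor had an unadjusted p under 0.05. Their median log2 fold change was 0.08. Snhg17 had 39.1 and 35.6 against 34.2 and 33.9 CPM (-0.13 ± 0.07), and Snhg20 had 11 and 8.81 against 10.7 and 11.6 CPM. Snhg11, with only 0.656 and 0.354 against 0.777 and 0.474 CPM (0.31 ± 0.48), and Snhg7 (0.09 ± 0.15) were the next by p.

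Among 33 protein-coding genes with snoRNAs in their introns, 9 fell and 3 rose, beside 13.2% and 13.6% of all tested genes, with a median of -0.01. Nop56, a core protein gene of box C/D snoRNPs, fell from 366 and 362 to 277 and 268 CPM. Its log2 fold change was -0.42 ± 0.04 (SE, edgeR adjusted p = 1.21e-06). Gnl3, a nucleolar GTPase gene, fell by 0.34, the ribosome assembly gene Ppan by 0.33, and Dkc1, the pseudouridine synthase gene of box H/ACA snoRNPs, by 0.28 on the log2 scale. The 3 that rose, Rpl3, Rpsa and Eef2, named after their values were seen, encode ribosomal proteins and an elongation factor and changed by 0.10 to 0.11. No coding host was called higher when low counts were kept, in either FPKM fit, or when wild-type replicate 1 or knockout replicate 2 was left out (0 in each). The count was 1 without wild-type replicate 2 or with the length trend removed.

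Across all tested genes, 13.2% fell and 13.6% rose. Of 17 tested genes for core proteins and assembly factors of snoRNPs, 11 fell in RNA level and none rose. The other 6 were not called, and 2 of the 17 lay above 0. The median was -0.21 against 0 for all genes. None had an unadjusted p under 0.05 in the upward direction in edgeR, DESeq2 or limma-voom. Besides Nop56 and Dkc1, which are also in the list above, Nolc1, a snoRNP chaperone gene of the nucleolus, fell from 297 and 288 to 228 and 215 CPM (log2 -0.40 ± 0.04; adjusted p = 4.94e-06), and Nhp2, a box H/ACA protein gene, by 0.27. Between 8 and 12 members fell over all alternatives. The values of the host RNAs and of the mRNAs for these proteins stand side by side here, and the difference between the lists was not tested. Protein levels were not measured. This list was chosen with earlier results of these data known, so its counts beside the shares of all genes are not a test.

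Of 20 genes of nonsense-mediated decay and the exon junction complex, 5 fell and 1 rose, with a median of -0.09. These 6 of 20 are near the 26.8% called among all tested genes. The termination factor genes Etf1 (log2 -0.23 ± 0.04) and Gspt1 (-0.21 ± 0.04), the helicase gene Eif4a3 (-0.20 ± 0.04) and Smg5 (-0.18 ± 0.04) had the smallest adjusted p. The fifth was Magoh (-0.16), and Pnrc2 (0.20) rose; both were named after their values were seen. Upf1, the central helicase, also named afterwards, had 200 and 185 against 175 and 184 CPM (adjusted p = 0.116 in edgeR). Without knockout replicate 2 the count of lower genes was 3. No gene was called higher in DESeq2, with low counts kept, in either FPKM fit, or when wild-type replicate 2 or either knockout library was left out.

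Of 17 genes of mTORC1 signalling and TOP tract binding, 4 fell and 1 rose, with a median of -0.01. These 5 of 17 are likewise near the background of 26.8%. Larp1, which binds TOP tracts, fell from 863 and 852 to 763 and 758 CPM (log2 -0.17 ± 0.03, edgeR adjusted p = 0.00137). Eif4ebp1, a translation inhibitor regulated by mTORC1, fell by 0.21, and Tsc2 by 0.13, while its partner Tsc1 rose by 0.19 on the log2 scale. Cnbp, the other gene that fell, changed by -0.10. The count of lower genes was 2 with any 1 library left out, as in DESeq2, with low counts kept, with upper-quartile factors and in either FPKM fit. No gene was called higher when wild-type replicate 1 or knockout replicate 2 was left out, in DESeq2, with low counts kept, in either FPKM fit, or with the length trend removed.

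Partners of Neat1 and Malat1 were read in 2 further lists. Of 18 genes of paraspeckle proteins, 2 fell and 1 rose in RNA level, with a median of -0.07. Thus 3 of 18 were called, beside 26.8% of all tested genes. Sfpq, which is needed for paraspeckle assembly, fell by 0.18 on the log2 scale (adjusted p = 0.00727), while Hnrnpa1 rose by 0.11 (0.0415) and Taf15 had -0.14 (0.0605), all in edgeR. Nono, the partner of Sfpq, named after its values were seen, had 525 and 518 against 525 and 496 CPM. The count of lower genes was 1 with low counts kept, in either FPKM fit, and without wild-type replicate 1 or knockout replicate 2. It was 6 without knockout replicate 1, and 5 with the length trend removed. No gene was called higher when wild-type replicate 1, wild-type replicate 2 or knockout replicate 1 was left out, in DESeq2, with library sizes only, with low counts kept, in either FPKM fit, or with the length trend removed.

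Of 23 genes of nuclear speckle proteins, 12 fell in RNA level and none rose, beside 13.2% and 13.6% of all tested genes. Their median was -0.13. This list too was chosen with earlier results known, so its counts beside those shares are not a test. None of the 23 genes had an unadjusted p under 0.05 in the upward direction in edgeR, DESeq2 or limma-voom. Rnps1, a splicing activator gene, fell from 303 and 310 to 234 and 229 CPM (log2 -0.40 ± 0.04, edgeR adjusted p = 1.82e-06). The splicing factor genes Srsf2 and Srsf6 each fell by 0.28, and Srsf3 by 0.20, on the log2 scale. Without wild-type replicate 1 or knockout replicate 2 the count was 7.

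Neat1 was set beside other long non-coding RNAs. Of 11 tested other long non-coding RNAs, 4 rose and 1 fell, beside 13.6% and 13.2% of all tested genes, with a median of 0.20. As this list was chosen with earlier results known, these counts are not a test. Kcnq1ot1, a nuclear antisense RNA of an imprinted domain, rose from 143 and 151 to 169 and 187 CPM (log2 0.27 ± 0.05; edgeR adjusted p = 0.000854). Mir155hg, the host of a microRNA of activated lymphocytes, rose by 0.24 and Tug1 by 0.15. Firre, the other that rose (0.20), was named after its values were seen. Mir17hg, the host of a microRNA cluster activated by Myc, fell from 27.9 and 27.7 to 21.7 and 23 CPM (adjusted p = 0.00498). In place of 4, the count of higher RNAs was 1 or 2 when any library was left out, 2 in DESeq2, with low counts kept and with log2(FPKM + 1), and 1 with log2(FPKM + 0.1) or the length trend removed. Mir17hg was not called without knockout replicate 1 or in DESeq2 (0 lower in each).

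**Figure D4:**
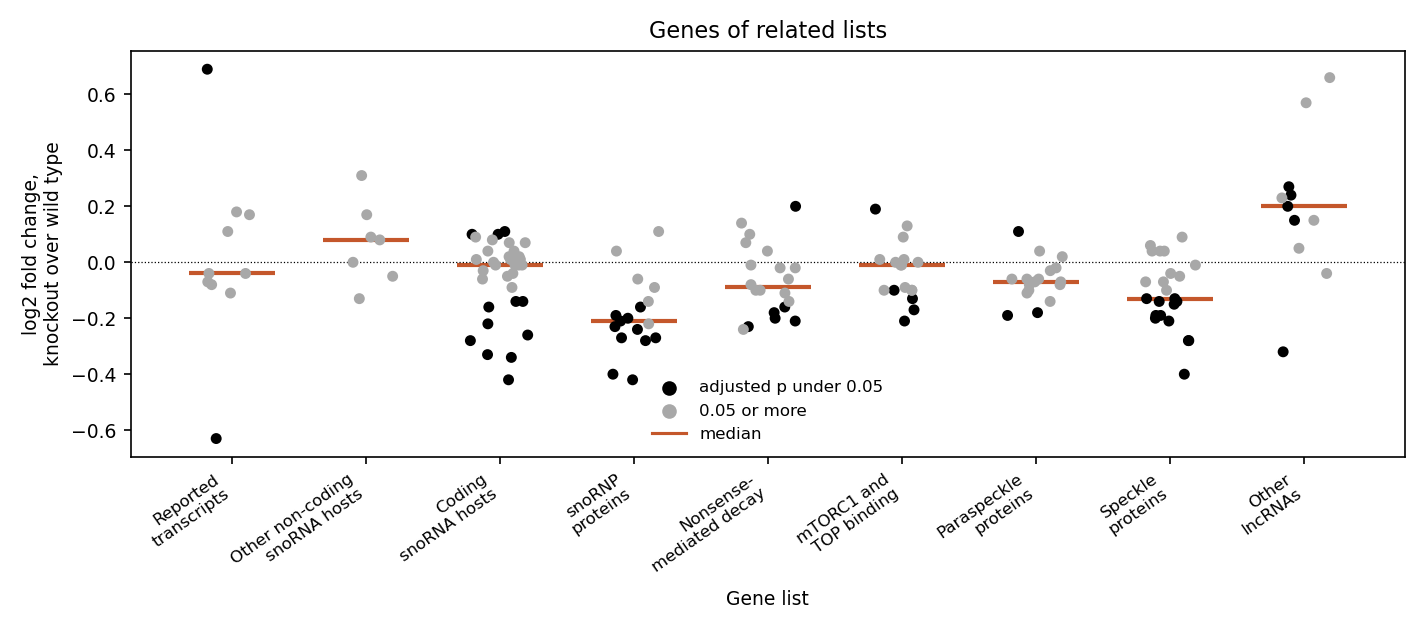
Log2 fold change, knockout over wild type (y axis), of the 10 reported transcripts and of the tested genes of 8 related lists (x axis), with 1 point per gene, black for an adjusted p under 0.05 and a line at the median. The genes of snoRNP proteins have a median of -0.21 and those of speckle proteins of -0.13. The other non-coding snoRNA hosts have 0.08 and no black point.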

How the data were processed

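Per the file headers, the deposited tables hold for each gene a length, an expected count and an FPKM. Bowtie and RSEM and the build GRCm38 (mm10) are named, without tool versions, in the submitters' processing notes. RSEM divides reads that match several transcripts, so its expected count need not be whole. The deposited FPKM is scaled to length and depth, as its name states. Genes missing from a table were set to 0.

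Expected counts were rounded and tested with edgeR 4.0.16 in R 4.3.3 (quasi-likelihood, two-sided, TMM, filterByExpr with minimum count 10 and minimum total 15, Benjamini-Hochberg adjustment over 12677 genes), after a test on simulated data. Means are ± SD over 2 libraries, and the SE of a log2 fold change is its size over the square root of the F statistic. Alternatives used other scaling factors and filters, limma 3.58.1, DESeq2 1.42.0, a length correction, a replicate block, and each library left out. With 2 libraries against 2, a permutation test cannot go below 0.333. The members and lists were chosen with earlier results of these data known. Named genes are the 10 members, the nearest listed genes on each side, in each list the 4 genes of smallest adjusted p, 3 genes nearest in pattern to Gas5 and to Malat1, and Bfar and Il9, and a few of these are not reported here. Il9 fell by 1.04 on the log2 scale.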

Additional observations from a re-analysis of the deposited data

How the results depend on the processing

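Of 164 recomputed fold changes of the 10 transcripts, 152 kept their direction and side of the threshold, 6 lost the call (all Malat1), 2 gained it (Snhg1) and 4 changed sign. The sign changes were small: with a library left out, Snhg4 ranged from -0.20 to 0.04 (without knockout replicate 1), Snhg5 from -0.10 to 0.02 and Snhg6 from -0.10 to 0.01 (both without wild-type replicate 2), and Snhg6 summed with Mcmdc2 was at 0.03. The number of these transcripts called was 1 in place of 2 in DESeq2, when low counts were kept, and in both FPKM fits, and 1 to 3 when a library was left out. The number of all genes called was 3398. It was 1707 in DESeq2, 1928 with no filter, and 1830 to 2341 with a library left out (1830 without knockout replicate 2, 2127 without wild-type replicate 1). Over all lists together, which were chosen with earlier results known, 52 of 144 tested genes were called, beside 26.8% of all tested genes. The count was 31 with no filter, 33 with log2(FPKM + 0.1), 34 with log2(FPKM + 1), and 29 to 45 with a library left out. The cause was not tested, except that fewer libraries enter the last fits.

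The replicate numbers of the labels are not stated to pair the samples, and same-numbered libraries deviated together only weakly (correlation 0.1 over 7260 genes). With the replicate number as a block, 3952 genes and 3 of the 10 transcripts were called, Snhg1 being added (adjusted p = 0.0278).

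With 2 libraries per genotype, host genes at 10 to 45 CPM had standard errors of 0.07 to 0.11 on the log2 scale, which limits what could be seen in them.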
